A study of Homo sapiens with 6 samples.

Results

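Proteoglycan core proteins are the proteins to which cells attach long sulfated sugar chains, the glycosaminoglycans. Expression of their genes was followed in CCD18Co, an established line of normal human colon fibroblasts, after silencing of *LTBP2*, which encodes a secreted protein of the latent TGF-beta binding family. The genes were chosen by name, as the small leucine-rich, hyaluronan-binding, basement membrane, syndecan, glypican, endocan and related core proteins, and all 36 were rows of the deposited table of 60663 genes. Cells were transfected for 6 h with pooled siRNAs that target *LTBP2* (siLTBP2) or that target no gene (siNT). RNA was taken at 48 h, for 3 libraries of each group, numbered 1 to 3. Both groups are therefore transfected cells of a single line, grown in serum, and no untransfected cells were compared. RNA was depleted of ribosomal RNA, sequenced, and counted per gene. The labels do not say whether the replicates were separate cultures, so that p-values measure the spread between these libraries, which may be technical.

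Each core protein gives its chains a place. The small leucine-rich proteins and the hyaluronan-binding proteins hold them in the collagen and hyaluronan matrix, perlecan and agrin hold them in basement membranes, and syndecans (transmembrane) and glypicans (lipid-anchored) display them on the cell surface. The chains are started on a shared linker and then extended as chondroitin or dermatan sulfate, heparan sulfate or keratan sulfate, and the pattern of sulfate groups decides which growth factors they bind. In connective tissue, decorin and lumican are known for shaping collagen fibrils, and versican for the loose matrix around moving cells.

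Libraries held between 44663424 and 53576899 counts. *LTBP2* fell from 23.1 ± 1.89 to 7.03 ± 1.39 CPM (counts scaled by library size, TMM-normalized, SD, n = 3), which left 30.4% of the control level (edgeR quasi-likelihood test, adjusted p = 6.6e-05). All 8 fibroblast markers were tested, with a summed level of 10925 to 14186 CPM in siNT and 11862 to 16256 CPM in siLTBP2. The 6 epithelial markers summed to at most 0.529 CPM and the 6 leukocyte markers to at most 0.359 CPM in any library. Among the 5 smooth muscle markers, *DES*, *MYH11* and *CNN1* were at most at 0.115 CPM, *ACTA2* had a log2 fold change of 0.23 (adjusted p = 0.31), and *TAGLN* rose (log2 fold change 1.16, adjusted p = 0.001), taking the summed level from 141 to 156 CPM in siNT to 231 to 305 CPM in siLTBP2. The part of this shift in the results below was not tested. In bulk RNA, fewer cells of a type and less RNA per cell cannot be told apart.

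Of the 36 core protein genes, 19 passed the filter on low counts and were tested. A gene is said here to have risen or fallen when its p-value, adjusted over all 16920 genes tested, was below 0.05, and to be deregulated when the adjusted p was below 0.01 and the change more than 2-fold. By the first rule 5 core protein genes rose and 3 fell, which is 42.1% of those tested, against 19.3% of all genes (9.76% higher and 9.51% lower). By the second rule 2 were deregulated, both upward, against 2.57% of all genes (1.29% upward and 1.27% downward). Both counts of genes that rose include *ESM1*, which passed the low-count filter only through siLTBP2, so a difference was to be found for it. The median log2 fold change of the 19 genes was -0.24, against -0.01 over all genes, and the median size of the change without its sign was 0.43, against 0.23. The 3 siLTBP2 libraries lay wholly above or below the 3 siNT libraries in 9 of the 19 (47.4%), against 37.0% of all genes. *ESM1* is among these 9 too. The core proteins were chosen with earlier results of these data known, so these shares are descriptions and no test of the set. With no low-count filter 28 core protein genes were run among 33596 genes. Of these 28, 8 passed upward and 8 downward, where 5.61% and 5.91% of all genes did. That fit gave some genes far smaller adjusted p-values for like changes. For *DCN* the log2 fold change was -0.30 there and -0.29 in the main fit, with edgeR quasi-likelihood adjusted p-values of 0.035 and 0.49. Counts of the fits are therefore not compared.

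Same-numbered libraries of the 2 groups deviated together, so each change was also fitted with the replicate number as a block. In that fit 6 core protein genes rose and 8 fell, 73.7% of the 19, but 36.2% of all genes passed there too (18.4% upward and 17.9% downward), and none of the 8 calls made without the block was lost. The 6 that rose again include *ESM1*, which passed the low-count filter only through siLTBP2. The blocked fit has 2 residual degrees of freedom, against 4 without the block, and borrows more of its spread from other genes. Unless the block is named, values are from the fit without it.

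**Figure D1:**
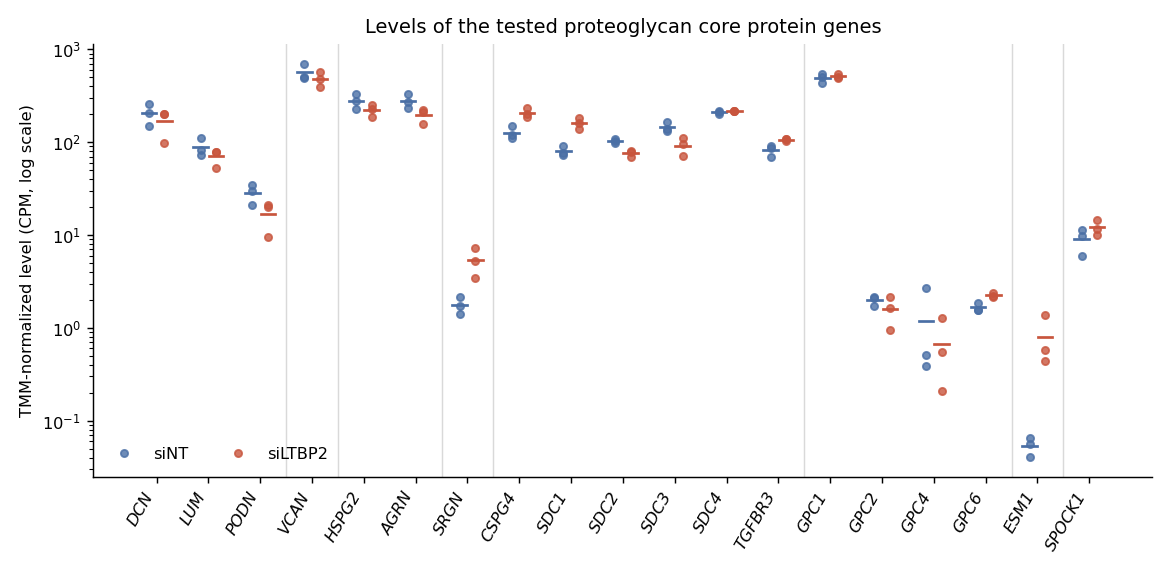
TMM-normalized level (CPM, log axis) of the 19 tested core protein genes in each of the 3 siNT (blue) and 3 siLTBP2 (red) libraries, with short lines at the group means and vertical lines between classes. The highest points belong to *VCAN* (702 CPM) and the lowest to *ESM1* (0.0405 CPM), and *SDC1*, *CSPG4* and *SRGN* are higher in every siLTBP2 library.

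Levels of different genes were compared per length, as TPM over the merged exons of each gene in GENCODE 44. In siNT the syndecan *SDC4* (305 ± 19.5 TPM) and the glypican *GPC1* (287 ± 35.6 TPM) were highest (SD, n = 3), and these 2 did not differ beyond their spread. They were followed by *VCAN* (147 ± 34.7 TPM) and *LUM* (125 ± 27.9 TPM). *AGRN*, *SDC2*, *SDC1* and *SDC3* came next, between 98.1 and 78.1 TPM. *DCN* (60.1 ± 16.6 TPM), *HSPG2* (58.9 ± 12.9 TPM) and *CSPG4* (57.9 ± 10.5 TPM) followed, and from *VCAN* to *CSPG4* each gene overlapped its neighbour in this order in range over the libraries. Below them lay *TGFBR3* at 36.7 ± 5.99 TPM and *PODN* at 22.1 ± 5.99 TPM. *SPOCK1* and *SRGN* lay at 5.50 and 5.45 TPM, and the other genes at 1.96 TPM or less. The merged exons of *DCN* span 12941 bases while its canonical transcript has 6850, so that its TPM is low for that transcript. The same holds for *GPC1* (6522 and 3719 bases), *PODN* (4899 and 3002), *AGRN* (10761 and 7326) and *SDC3* (7065 and 5246). *SDC4* has 2613 bases in both. The order of the genes, and the likeness of *SDC4* and *GPC1*, therefore depend on the length used.

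The syndecans, which carry heparan sulfate through the plasma membrane and act as co-receptors for growth factors and matrix, showed changes in opposite directions. *SDC1* was at 92.0, 77.2 and 73.1 CPM in siNT replicates 1 to 3 and at 182, 161 and 137 CPM in siLTBP2. Every siLTBP2 library was above every siNT library, and the log2 fold change was 0.99 (SE, its standard error, 0.12, edgeR adjusted p = 0.00041), or 1.98-fold, just under the 2-fold limit for a deregulated gene. *SDC3*, a syndecan best known from nerve and muscle, was at 164, 139 and 133 CPM in siNT and at 95.3, 110.5 and 70.6 CPM in siLTBP2. Its groups did not overlap either, and it fell to 63.4% of the siNT level (log2 fold change -0.66, SE 0.15, adjusted p = 0.011). *SDC2*, the syndecan typical of fibroblasts, was at 107.9, 97.4 and 103 CPM and then at 80.8, 79.1 and 68.8 CPM. It fell to 74.2% of siNT, again without overlap (log2 fold change -0.43, SE 0.09, adjusted p = 0.0075).

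*SDC4*, the syndecan of focal adhesions and the most abundant of the 4 per length, had 218, 200.2 and 211 CPM in siNT and 219, 215 and 218 CPM in siLTBP2. Its groups overlapped, with a log2 fold change of 0.05 (SE 0.08, adjusted p = 0.72). The summed syndecan level was 564 ± 49.5 TPM in siNT and 592 ± 53.1 TPM in siLTBP2 (SD, n = 3), a difference within the spread between libraries. Within that sum the share of *SDC1* was 16.0, 15.1 and 13.9% in siNT and 30.1, 27.5 and 25.6% in siLTBP2, while *SDC2* went from 16.7, 16.9 and 17.4% to 11.8, 11.98 and 11.4% and *SDC3* from 14.6, 13.9 and 12.9% to 8.04, 9.68 and 6.73%. Per length of merged exons *SDC1* came after *SDC4* and *SDC2* in siNT, and after *SDC4* alone in siLTBP2.

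**Figure D2:**
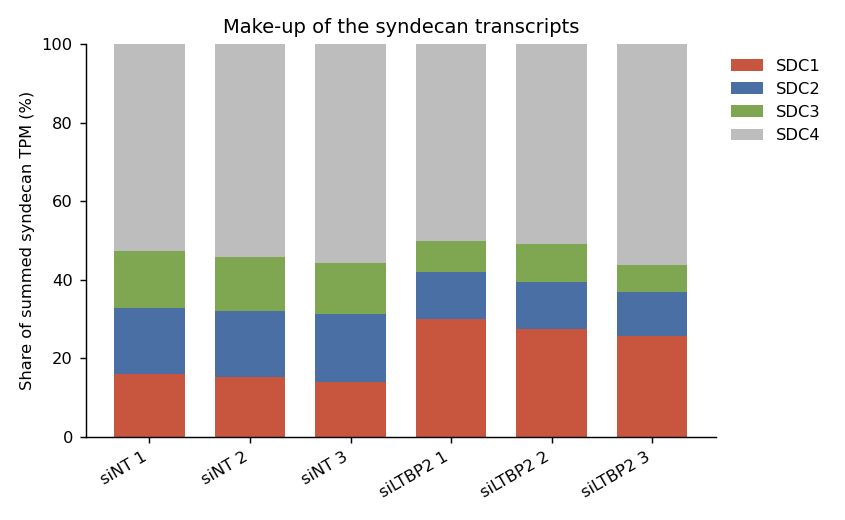
Share of the summed syndecan TPM (%) taken by *SDC1*, *SDC2*, *SDC3* and *SDC4* in each of the 6 libraries, as stacked bars. The red part (*SDC1*) lies between 13.9 and 16.0% in siNT and between 25.6 and 30.1% in siLTBP2, and the grey part (*SDC4*) between 50.1 and 56.3% throughout.

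The other transmembrane core proteins that were tested both rose. *CSPG4*, also called NG2, a chondroitin sulfate proteoglycan of pericytes and other mesenchymal cells, was at 148, 119.7 and 111 CPM in siNT and at 233, 202 and 187 CPM in siLTBP2. The lowest siLTBP2 library was above the highest siNT library, and the log2 fold change was 0.72 (SE 0.12, adjusted p = 0.0025). *TGFBR3*, or betaglycan, which presents TGF-beta to its signalling receptors, was at 91.6, 86.9 and 70.1 CPM and then at 107, 107 and 103 CPM. The groups did not overlap and the gene rose by a log2 fold change of 0.36 (SE 0.10, adjusted p = 0.035). That call did not hold without replicate 2 of siNT (adjusted p = 0.062), replicate 3 of siNT (0.11), or replicate 1 (0.084) or 2 (0.11) of siLTBP2, nor with total counts in place of TMM (0.054). Under the replicate block its adjusted p was 0.00024. *CSPG5*, a brain proteoglycan, had between 2 and 8 counts per library and was not tested.

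*SRGN* and *ESM1* were the 2 deregulated core protein genes. *SRGN* encodes serglycin, the proteoglycan of secretory granules that is best known from blood cells. It was at 1.41, 2.15 and 1.71 CPM in siNT and at 3.44, 7.27 and 5.28 CPM in siLTBP2, so that all siLTBP2 libraries were higher, with a log2 fold change of 1.60 (SE 0.27, adjusted p = 0.0025). The leukocyte marker *MPO* was at 0 in every library, and *PTPRC* was at most at 0.169 CPM. *SRGN* had an adjusted p of 0.012 without siNT replicate 1, 0.010 without siNT replicate 2 and 0.011 without siLTBP2 replicate 2, which is past the limit for a deregulated gene but still below 0.05.

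*ESM1* encodes endocan, a small secreted dermatan sulfate proteoglycan best known from endothelial cells. It had 3, 2 and 3 counts in siNT and 25, 21 and 72 in siLTBP2. The summed counts differed 15.4-fold, with an exact 95% interval of 7.55 to 36.4 that covers counting error only. It passed the low-count filter only through siLTBP2, so a difference was to be found for any gene that did so, and siLTBP2 replicate 3 was more than the sum of the other two. The log2 fold change was 3.85 (SE 0.58, adjusted p = 0.0013), and without siNT replicate 2 it was 3.69 with an adjusted p of 0.013. Of the endothelial markers (summed level 67.5 to 83.6 CPM in siNT and 59.9 to 74.3 CPM in siLTBP2), *CDH5*, *KDR* and *CLDN5* were at most at 0.0742 CPM and *PECAM1* at most at 0.254 CPM, *VWF* lay between 0.702 and 1.84 CPM, lower in each siLTBP2 library (log2 fold change -0.71, adjusted p = 0.065), and *TEK* lay between 59.1 and 81.5 CPM with no call (log2 fold change -0.12, adjusted p = 0.48).

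Both basement membrane core proteins were lower in siLTBP2. *AGRN*, agrin, the heparan sulfate proteoglycan that organises the nerve-muscle synapse and is also laid down in other basement membranes, was at 327, 269.6 and 235 CPM in siNT and at 223, 209 and 157 CPM in siLTBP2. The groups did not overlap and *AGRN* fell to 70.8% of siNT (log2 fold change -0.50, SE 0.15, adjusted p = 0.039). Its call was lost without siNT replicate 1 (-0.37, adjusted p = 0.12), siNT replicate 2 (-0.52, 0.090), siLTBP2 replicate 2 (-0.55, 0.072) or siLTBP2 replicate 3 (-0.36, 0.083). Under the replicate block the adjusted p was 2.5e-06. *HSPG2*, perlecan, was at 334, 279 and 228 CPM in siNT and at 252, 229 and 185 CPM in siLTBP2. Its groups overlapped, since siNT replicate 3 lay below 2 siLTBP2 libraries, and the log2 fold change of -0.34 (SE 0.15) did not pass (adjusted p = 0.14). With the replicate block *HSPG2* passed, with a log2 fold change of -0.33 (SE 0.07, adjusted p = 0.00049). It passed with no low-count filter as well (edgeR quasi-likelihood adjusted p = 0.0096).

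Among the small leucine-rich proteoglycans, only 3 of 12 genes were tested, and each had a log2 fold change below 0 that passed only in some fits. *DCN*, decorin, was at 204, 259.6 and 149.9 CPM in siNT and at 203, 201 and 97.5 CPM in siLTBP2. The groups overlapped widely, and replicate 3 was the lowest library of each group (log2 fold change -0.29, SE 0.26, adjusted p = 0.49). *LUM*, lumican, the neighbour of *DCN* on chromosome 12, was at 81.8, 110.0 and 73.1 CPM and then at 78.7, 78.9 and 53.3 CPM. Its groups overlapped too (log2 fold change -0.33, SE 0.17, adjusted p = 0.22). *PODN*, podocan, a leucine-rich proteoglycan first described in kidney and also made by smooth muscle, was at 34.4, 30.02 and 20.8 CPM in siNT and at 21.2, 20.2 and 9.64 CPM in siLTBP2. One siNT library lay just under the highest siLTBP2 library, and the log2 fold change was -0.74 (SE 0.27, adjusted p = 0.077).

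With the replicate block all 3 passed, with adjusted p-values of 0.0026 for *DCN*, 0.0013 for *LUM* and 6.4e-08 for *PODN* and log2 fold changes of -0.33, -0.33 and -0.78. *DCN* differed little within replicate 1, where the log2 ratio of siLTBP2 to siNT was -0.01, against -0.37 and -0.62 within replicates 2 and 3. *PODN* was lower within each number, with log2 ratios of -0.68, -0.56 and -1.07. It also passed under the likelihood ratio test (adjusted p = 0.034), without siNT replicate 3 (0.036), and without siLTBP2 replicate 1 (0.043). With no low-count filter *DCN*, *LUM* and *PODN* passed too (edgeR quasi-likelihood adjusted p = 0.035, 0.015 and 9.1e-08). That fit gave some genes far smaller adjusted p-values for like changes, as described above.

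**Figure D3:**
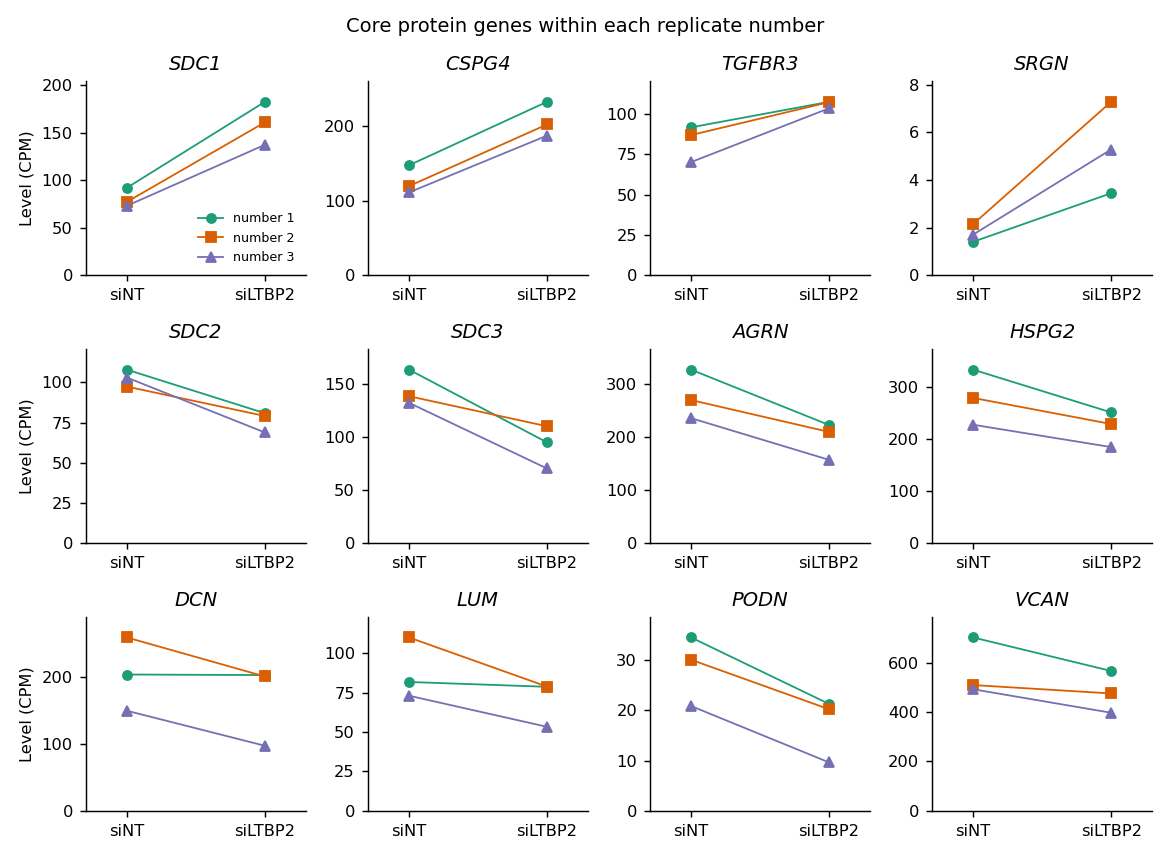
Level (CPM, axis from 0) of 12 core protein genes in siNT and siLTBP2, with a line joining the libraries of the same replicate number (number 1 green circles, number 2 orange squares, number 3 purple triangles). Lines of *SDC1*, *CSPG4*, *TGFBR3* and *SRGN* rise in all 3 numbers, those of *SDC2*, *SDC3*, *AGRN*, *HSPG2*, *PODN* and *VCAN* go down in all 3, and the line of *DCN* is nearly flat for number 1 (204 and 203 CPM).

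The small leucine-rich genes lie in clusters on the genome, and the genes of a cluster were not alike in level. On chromosome 12 (GRCh38, minus strand) *EPYC* starts at 90963682, *KERA* at 91050491, *LUM* at 91102629 and *DCN* at 91140484, by the lower coordinate of each gene. *LUM* and *DCN* were among the abundant core proteins, while *EPYC*, of cartilage, and *KERA*, of cornea, had no count in any library. On chromosome 9 *OGN*, *OMD* and *ASPN* lie between 92383268 and 92482506, and the first 2 had no count while *ASPN* had 0 to 2 counts per library. On chromosome 1 *FMOD*, fibromodulin, had 2 counts in all, and *PRELP*, which lies in the same region, had 2 to 18 counts per library. *BGN*, biglycan, the close relative of decorin on chromosome X, had 4 counts over the siNT libraries and 3 over the siLTBP2 libraries, and *CHAD* had 1 count in all.

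*VCAN*, versican, was the single hyaluronan-binding core protein with enough counts. It was at 702, 509 and 492 CPM in siNT and at 566, 475 and 397 CPM in siLTBP2, with overlapping groups (log2 fold change -0.24, SE 0.16, adjusted p = 0.33). With the replicate block it passed, with a log2 fold change of -0.24 (SE 0.08, adjusted p = 0.013). *ACAN*, the aggrecan of cartilage, had no count, and the brain proteins *BCAN* and *NCAN* had at most 4 counts per library.

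Glypicans gave no call in either fit. *GPC1*, the glypican of most adult tissues, was at 539, 435 and 505 CPM in siNT and at 546, 508 and 493 CPM in siLTBP2, with a log2 fold change of 0.06 (SE 0.10, adjusted p = 0.72). *GPC6* lay between 1.56 and 1.86 CPM in siNT and between 2.13 and 2.37 CPM in siLTBP2, without overlap, but its log2 fold change of 0.43 (SE 0.18) had an adjusted p of 0.13. *GPC2* had a log2 fold change of -0.33 (SE 0.28, adjusted p = 0.46). *GPC4* was at 2.703 CPM in siNT replicate 1 and between 0.209 and 1.26 CPM in the other 5 libraries, and its log2 fold change of -0.84 (SE 0.74, adjusted p = 0.48) became 0.55 without that library. *GPC3* and *GPC5* had no count.

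*SPOCK1*, a testican, that is a secreted proteoglycan with a calcium-binding domain, was at 9.64, 5.89 and 11.4 CPM in siNT and at 11.7, 9.96 and 14.5 CPM in siLTBP2. The groups overlapped (log2 fold change 0.42, SE 0.22, adjusted p = 0.22), and with the replicate block the log2 fold change was 0.45 (SE 0.11, adjusted p = 0.0014). With no low-count filter *SPOCK1* had an edgeR quasi-likelihood adjusted p of 0.046. *SPOCK3* had no count. In all, 8 of the 36 genes had no count in any library. There 3 counts correspond to between 0.0556 and 0.0688 CPM, and a gene at a lower level could have been missed at this depth.

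**Figure D4:**
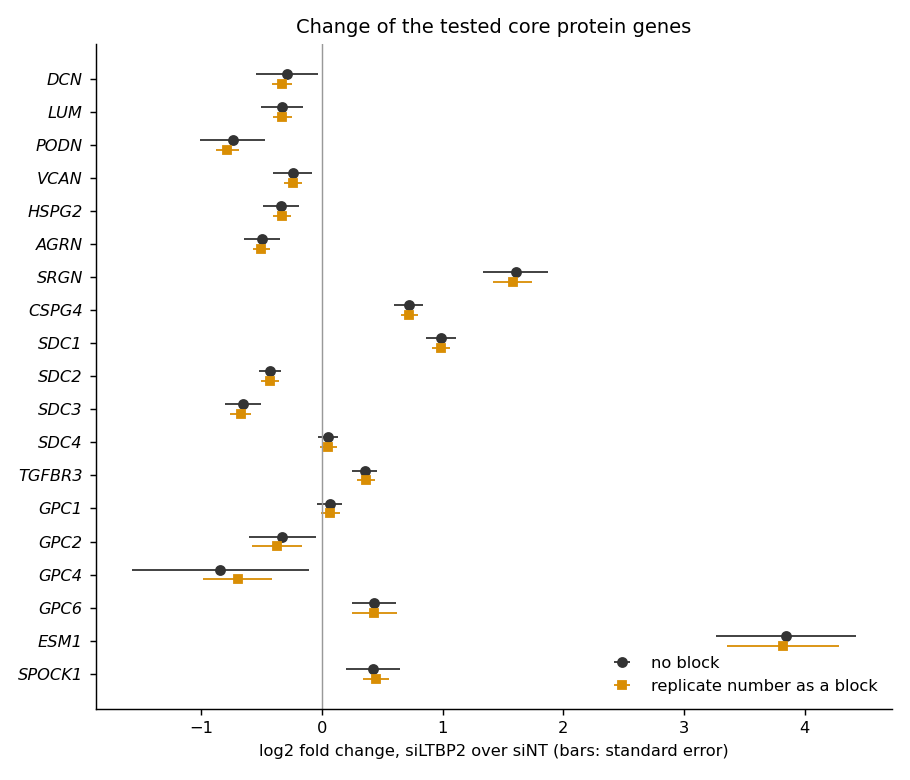
Log2 fold change of siLTBP2 over siNT for the 19 tested core protein genes, without a block (black circles) and as fitted with the replicate block (orange squares), with bars for the standard error. The points of both fits lie close together, and the bars of *DCN*, *LUM*, *PODN* and *VCAN* are shorter with the block, for example 0.09 against 0.26 for *DCN*.

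Genes that build, trim and accompany proteoglycans were taken from 8 lists of 112 genes, of which 80 were tested. By the same rule 14 rose and 10 fell, 30% of those tested against 19.3% of all genes, and with the replicate block 29 rose and 17 fell, where 18.4% of all genes rose and 17.9% fell. Both counts of genes that rose include *ADAMTS4*, which passed the low-count filter only through siLTBP2, so a difference was to be found for it. The lists were chosen with earlier results of these data known, so these shares are descriptions and no test of the lists. The counts of each list, here and below, rest on few genes and stand against 9.76% of all genes higher and 9.51% lower. Nothing is read from them about a list. In the list of the shared linker and of precursor supply, 4 of 17 tested genes rose and 1 fell. *SLC26A2*, the sulfate transporter of the cell surface, rose from 49.7 ± 2.04 to 80.2 ± 5.14 CPM (SD, n = 3, edgeR adjusted p = 0.00041). *B3GALT6*, which adds the second galactose of the linker, rose from 36.5 ± 3.34 to 59.3 ± 8.03 CPM (adjusted p = 0.002), and *SLC35D1*, a nucleotide sugar transporter of the endoplasmic reticulum, from 103 ± 10.9 to 154 ± 12.2 CPM (adjusted p = 0.0029).

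Of the enzymes of chondroitin and dermatan sulfate, 2 of 15 tested rose and 2 fell. *CSGALNACT1*, which begins chondroitin chains on the linker, was deregulated upward, with 1.10, 0.993 and 1.56 CPM in siNT and 4.24, 4.06 and 3.09 CPM in siLTBP2 (log2 fold change 1.63, SE 0.22, adjusted p = 0.00075). *UST*, which puts sulfate on the uronic acid of these chains, fell from 51.1 ± 2.50 to 29.3 ± 2.98 CPM (SD, n = 3, adjusted p = 0.00041). *CHSY1*, a chondroitin polymerase, had a log2 fold change of 0.30 (adjusted p = 0.044), a call that was lost whichever library was left out (adjusted p from 0.051 to 0.14), with total counts in place of TMM (0.073) and with no low-count filter (0.063).

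The heparan sulfate enzymes gave 3 genes that rose and 2 that fell among 12 tested. *NDST1*, which removes acetyl groups from the growing chain and adds sulfate in their place, the step on which later sulfation depends, was at 369, 307 and 329.7 CPM in siNT and at 189.6, 204 and 190.3 CPM in siLTBP2. It fell without overlap to 58.0% of siNT (log2 fold change -0.79, SE 0.09, adjusted p = 0.00035). *HS3ST3A1*, a 3-O-sulfotransferase that acts late on the chain, was deregulated upward from 10.6 ± 1.36 to 22.6 ± 3.92 CPM (SD, n = 3, adjusted p = 0.00066), and its log2 fold change of 1.09 was 0.94 without siLTBP2 replicate 3. *GLCE*, the epimerase of the chain, rose from 73.8 ± 5.77 to 106 ± 6.02 CPM (adjusted p = 0.0026). The 3 keratan sulfate genes tested did not pass.

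Among 15 tested genes of glycosaminoglycan breakdown, 2 rose and 3 fell. *ARSB*, the lysosomal arylsulfatase B that takes sulfate off dermatan and chondroitin sulfate, was at 54.9, 51.8 and 51.9 CPM in siNT and at 15.7, 18.0 and 15.5 CPM in siLTBP2. With 31.0% of the siNT level left it had nearly the same remaining share as *LTBP2* itself (log2 fold change -1.69, SE 0.10, adjusted p = 8.7e-06), and it was deregulated with any library left out. *HPSE*, heparanase, which cuts heparan sulfate chains, fell from 16.1 ± 0.926 to 9.79 ± 0.828 CPM (SD, n = 3, adjusted p = 0.0018). *ARSK*, another sulfatase of this pathway, rose from 14.4 ± 0.920 to 22.7 ± 1.85 CPM (adjusted p = 0.002).

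The proteinases that cut core proteins included 1 gene that rose and 1 that fell among 7 tested, both deregulated. *ADAMTS5*, an enzyme that cleaves aggrecan and versican, was at 147, 109 and 89.1 CPM in siNT and at 65.1, 57.3 and 39.7 CPM in siLTBP2 (log2 fold change -1.09, SE 0.20, adjusted p = 0.0038). Without siNT replicate 1 the log2 fold change was -0.88, and without siLTBP2 replicate 3 it was -0.91, while without siNT replicate 2 or siLTBP2 replicate 2 the adjusted p was 0.020 and 0.014. *ADAMTS4*, of the same activity, had 6 counts over the siNT libraries and 58 over the siLTBP2 libraries, a ratio of 10.1 (exact 95% interval 4.36 to 28.6, counting error only), and like *ESM1* it passed the filter only through siLTBP2. Its adjusted p of 0.0077 rose to between 0.017 and 0.044 without replicate 2 or 3 of siNT, or replicate 1 or 2 of siLTBP2.

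Proteins that carry chains in only some of their forms, and small leucine-rich genes outside the 36, gave 2 genes that rose and 1 that fell among 10 tested. *NRP1*, neuropilin 1, a co-receptor for VEGF and semaphorins, was deregulated upward from 263 ± 34.5 to 594 ± 38.2 CPM (SD, n = 3, adjusted p = 0.00011). *APLP2*, a relative of the amyloid precursor protein, rose from 140.5 to 226 CPM on average (log2 fold change 0.69, adjusted p = 0.00031). *CD44*, the hyaluronan receptor, fell from 5575 ± 816 to 3416 ± 280 CPM (SD, n = 3, adjusted p = 0.0046). Of the 4 link proteins only *HAPLN3* was tested, with a log2 fold change of 0.23 (adjusted p = 0.34).

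**Figure D5:**
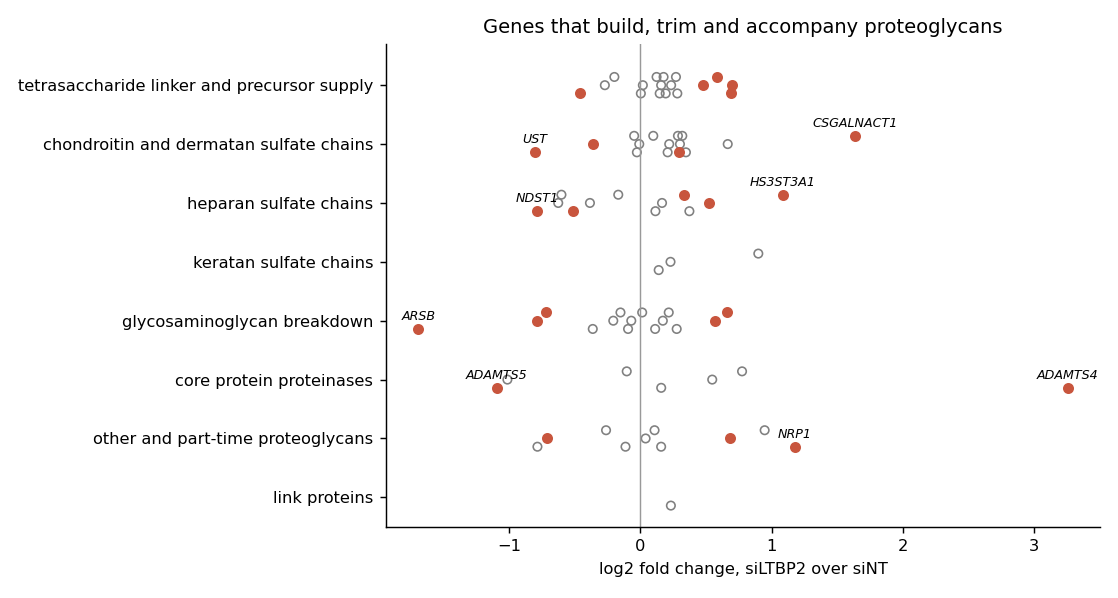
Log2 fold change of siLTBP2 over siNT for the 80 tested genes of the 8 lists, 1 row per list, with filled red points for an adjusted p below 0.05 and open points for the others. *ARSB* (-1.69) lies farthest to the left and *ADAMTS4* (3.26, on few counts) farthest to the right, and each list with a filled point has them on both sides of 0.

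The 3′ UTRs of canonical transcripts (GENCODE 44) were searched on the transcript strand for the word GCACCCA, which an earlier search over all words in these same libraries had picked out because its carriers were lower in siLTBP2. Its presence is therefore a description and supports no cause. The word was in 2 of the 19 tested core protein genes (10.5%), against 11.8% of the tested coding genes whose 3′ UTR has 50 bases or more. These 2 were *SDC3*, which fell, and *PODN*, which had no call in the main comparison. Their sites, with the word in capitals and 11 bases on each side, lie at chr1:30872840-30872868 (minus strand, *SDC3*) and chr1:53084823-53084851 (plus strand, *PODN*) of GRCh38.
SDC3: gccctgacttgGCACCCAcagtgctcact
PODN: ggcacacacagGCACCCAttccctccccc

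Of the 80 tested pathway genes 12 carried the word (15%), of which 5 fell, 2 rose and the others did not pass, where 9.51% of all genes tested fell and 9.76% rose. Since the word was picked for carriers that were lower, nothing is read from these counts about the pathway genes. The 5 that fell were *ARSB*, *NDST1* and *CHST14* with 2 copies each, and *UST* and *HPSE* with 1. The 2 that rose were *HS3ST3A1* and *ADAMTS4*, with 1 copy each, both described above as deregulated upward. Sites are shown only for carriers that fell and are described above, as examples of the word in place. They were chosen by direction, and the sites of the 2 carriers that rose are not reported here, so the sites shown say nothing of how carriers moved. They lie at chr5:78778899-78778927 and chr5:78778023-78778051 (minus strand, *ARSB*), at chr5:150553468-150553496 and chr5:150553498-150553526 (plus strand, *NDST1*), at chr6:149075086-149075114 (plus strand, *UST*) and at chr4:83293903-83293931 (minus strand, *HPSE*).
ARSB, first site: tcccacctcagGCACCCAaatagctggaa
ARSB, second site: ggggatgttctGCACCCAgtggacttcaa
NDST1, first site: gggctgggggaGCACCCAggcggatctgc
NDST1, second site: agcacctcggaGCACCCAccgctgggtct
UST: ctgtgtcttttGCACCCAatatgaaacat
HPSE: catctctacagGCACCCAtcagaaaaagc

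*SDC2* and *AGRN*, which fell, and *DCN*, *LUM*, *VCAN* and *HSPG2* had no copy in the 3′ UTR of the canonical transcript. Among core protein genes without a test, *BGN* and *PRELP* had 1 copy and *ACAN* had 2. No siRNA sequence was used here. A role of the word in these levels was not tested.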

How the data were processed

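Total RNA of 6 CCD18Co libraries was sequenced as stranded, ribosomal RNA depleted libraries. The authors aligned reads to GRCh38 with STAR 2.7.1a and deposited unnormalized counts for each gene, made with HTSeq-count 0.11.2 (versions from the submitters' processing notes). The strand setting and annotation release were not found (not given in the sources used here). Of the tested core protein genes 7 share exonic bases with another gene, whose mean count was at most 11.0. Of all gene identifiers 99.7% are in GENCODE 44, which gave positions, lengths and 3′ UTRs, and 46 tested genes without a length there have no TPM.

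Groups were compared in R 4.3.3 with edgeR 4.0.16, by its two-sided quasi-likelihood test (glmQLFTest) after filterByExpr and TMM scaling, with Benjamini-Hochberg adjustment over all genes. A standard error is the size of the log2 fold change over the root of its F statistic. The alternatives were the likelihood ratio test named in the study's methods, DESeq2 1.42.0, other scalings and filters, the replicate number as a block, and leaving out each library. Core proteins and lists were chosen with earlier results of these data known. All tested core proteins are named, and in each pathway list the deregulated genes and the 3 called genes of smallest p-value.

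On simulated data for this comparison (10 draws, 200 changed genes, 16618 to 16710 genes run), 72.9% of 2-fold and 98.6% of 4-fold changes were called at an adjusted p below 0.05. False calls averaged 7.42% (4.52 to 10.5%), above the nominal 5%, so calls close to 0.05 are less certain than the adjusted p states. The draws changed 200 genes, by 2-fold or 4-fold, while 3261 genes were called in the data, so these rates may differ there.

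Deviations from the group mean, on log2(CPM + 0.5), correlated at 0.44, 0.19 and 0.57 between libraries of the same number and between -0.50 and 0.07 otherwise, so the numbers were taken to pair the libraries. This comes from the data, since the labels give the number without saying what is shared. With a pseudocount of 0.1 the lowest was 0.11, so the pairing of replicate 2 is borderline. The deviations of a group cancel out for each gene, so positive correlations within numbers push the others down. The low values between numbers are therefore no separate evidence of pairing. Some items are not reported here.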

Additional observations from a re-analysis of the deposited data

How the results depend on the processing

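The *LTBP2* log2 fold change stayed between -1.89 and -1.61 with 1 library left out and kept its call under every alternative run. With the replicate block 3109 genes were higher and 3022 lower at an adjusted p below 0.05, 336 were deregulated downward, 8 core protein genes were lower, and 29 pathway genes were higher and 17 lower. The block changed no other count by over 1.5 times. With no low-count filter 356 genes were deregulated downward and 8 core protein genes were higher and 8 lower. With a filter of 1 CPM in 3 libraries 1 core protein gene was deregulated upward, since *ESM1* was no longer tested. With 1 library left out, between 1042 and 1449 genes were higher and between 1078 and 1332 lower, 137 to 201 were deregulated upward and 155 to 207 downward. Of the core protein genes 4 to 5 were then higher and 2 to 4 lower, 0 to 3 were deregulated upward and 0 downward, and of the pathway genes 11 to 15 were higher and 9 to 11 lower. The count of 0 deregulated upward was without siNT replicate 2, where *SRGN* and *ESM1* both missed the limit of 0.01. Directions turned with 1 library left out in *GPC4* and *GPC1*, which had no call in the main comparison, although *GPC4* is among the 8 lower with no low-count filter (-0.85, adjusted p = 0.025). *GPC4* had a log2 fold change of 0.55 without siNT replicate 1 and -1.65 at the lowest, and *GPC1* ranged from -0.017, without siNT replicate 2, to 0.13. The causes were not tested. Depth limits genes of few counts, such as *ESM1* and *ADAMTS4*.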

Other observations

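Among the core protein genes that the low-count filter removed, *SPOCK2* and *PRELP* were the 2 whose counts did not overlap between the groups. They are named here after their values were seen. The share of all removed genes without overlap was not computed, so nothing is read from this count. *SPOCK2*, a testican of brain and lung, had 1, 4 and 1 counts in siNT and 8, 7 and 18 in siLTBP2, a ratio of 5.73 over the summed counts (exact 95% interval 2.37 to 16.7, counting error only). *PRELP*, a small leucine-rich protein that binds heparan sulfate and collagen, had 6, 6 and 2 counts in siNT and 8, 18 and 14 in siLTBP2, a ratio of 2.98 (1.59 to 5.92). With no low-count filter their adjusted p-values were 0.005 and 0.042 in edgeR's quasi-likelihood test, where 11.5% of genes passed. That fit gave some genes far smaller adjusted p-values than the main fit for like changes, so these 2 values are less certain than they state.

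Ratios within a replicate number had the same sign in all 3 numbers for 16 of the 19 tested core protein genes (84.2%), against 59.2% of all genes tested, on log2 of CPM plus 0.5. The exceptions were *GPC1*, *GPC2* and *GPC4*. The 16 include *ESM1*, which passed the low-count filter only through siLTBP2, so its sign was to be found. They also include ratios close to 0, such as those of *SDC4* (0.007, 0.10 and 0.05). The share is therefore a description and no measure of how many genes changed.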
